A study of Mus musculus with 12 samples.

Results

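RNA was compared between RAW 264.7 macrophages labelled sh-PHLPP1 and RAW 264.7 macrophages labelled sh-Luc, the control, both after oxidised low-density lipoprotein (OxLDL). RAW 264.7 is a mouse macrophage line of BALB/c origin. The comparison used 6 of the 12 libraries of the study, 3 per group, chosen by the shRNA and treatment in their labels and by no measured value. The groups were sh-PHLPP1 with OxLDL and sh-Luc with OxLDL. The cells of both were stable RAW 264.7 cells that had been nucleofected with a short hairpin RNA (shRNA) construct and selected with puromycin, and both groups were given OxLDL at 100 µg/ml for 24 h. Libraries 1, 2 and 3 of each group came from passages 9, 10 and 11. The remaining 6 libraries, sh-PHLPP1 untreated and sh-Luc untreated, had the same hairpins, selection and passages but no OxLDL. The labels name no second line, clone or hairpin per group, so the p-values measure the spread between cultures of 1 line at successive passages. The study asked how knockdown of PHLPP1 changes the macrophage transcriptome with and without OxLDL.

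PHLPP1 is a phosphatase with leucine-rich repeats that removes an activating phosphate from the kinase AKT, which drives growth and nutrient use. Macrophages take up OxLDL through scavenger receptors such as CD36 and MSR1, store its cholesterol in lipid droplets and so become foam cells. The transcription factor NF-kB, held in the cytoplasm by inhibitors such as IκBα until a danger signal arrives, switches on cytokine and chemokine genes in these cells.

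The libraries labelled sh-PHLPP1 held 16974037, 19336377 and 17365765 counts, and those labelled sh-Luc held 22020705, 27422114 and 16020186 counts. Levels are given as CPM, counts scaled to library depth after TMM scaling, a correction for a few very abundant genes taking up reads. Those genes weighed more in the libraries labelled sh-PHLPP1, where the top 10 genes held 15.8 to 18.5% of counts, against 10.5 to 10.9% in sh-Luc. Pearson's r between libraries, over log2(CPM + 1) of the genes, was 0.988 to 0.997 within sh-PHLPP1, 0.996 to 0.997 within sh-Luc and 0.923 to 0.944 between the groups. Library 3 of sh-PHLPP1 was the least like its group (0.988 and 0.991). In the untreated cells, library 1 labelled sh-PHLPP1 correlated less with its own replicates (0.971 and 0.970) than with sh-Luc libraries 1 and 3 (0.986 and 0.985), and sh-Luc library 2 also stood apart. Most results that rest on untreated cells are therefore also given without both of those libraries. T cell and epithelial markers were at 0 counts in all 6 OxLDL libraries. B cell, neutrophil, dendritic cell and fibroblast markers summed to at most 0.444, 5.70, 1.06 and 4.92 CPM in any of them, with 3 of 5, 2 of 6, 1 of 5 and 1 of 6 markers at 0. The 5 endothelial markers summed to 6.74 to 7.46 CPM in sh-PHLPP1 and 7.33 to 11.3 CPM in sh-Luc. The 9 macrophage markers summed to 12590 to 13993 CPM in sh-PHLPP1 and 16385 to 17861 CPM in sh-Luc. Most of each sum was Lyz2, with 127974, 139923 and 119238 counts in sh-PHLPP1 and 299979, 361608 and 226130 in sh-Luc. The sums therefore mostly follow that gene, and the other macrophage markers went in both directions.

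After OxLDL the lines differed over much of the transcriptome. Cytokine, chemokine and NF-kB feedback genes were higher in the libraries labelled sh-PHLPP1, while genes of DNA replication, mitosis, and cholesterol and fatty acid synthesis were lower. Of 13121 genes tested with edgeR's quasi-likelihood test, 3621 were higher (27.6%) and 3619 were lower (27.6%) at a Benjamini-Hochberg adjusted p under 0.05, 55.2% in either direction. Counts of list members called after OxLDL are to be read beside these shares. A difference of at least 1 on the log2 scale was seen in 1421 of the higher and 1453 of the lower genes, and of at least 3 in 150 and 140. The median over all genes was a log2 fold change of 0.01. The 3 values of one group lay entirely above or below those of the other in 69.2% of genes (34.7% higher, 34.6% lower), so a lack of overlap by itself was common. Fold changes are sh-PHLPP1 over sh-Luc (n = 3 libraries per group), given with a standard error after the ± sign. That error is the size of the log2 fold change divided by the square root of edgeR's F statistic. Its spread is estimated over all 12 libraries, so it also reflects the untreated ones, including those that stand apart. With library size alone as the scaling, the median of all genes moved to -0.25, and 29.9% of the called genes were higher. Without library 3 labelled sh-PHLPP1, 3078 genes were higher and 3225 lower. In bulk RNA, fewer cells of a type and less RNA per cell cannot be told apart.

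The targeted gene, Phlpp1 (ENSMUSG00000044340, chr1:106171752-106394250, build GRCm38), had 8.65, 8.35 and 7.40 CPM in libraries labelled sh-PHLPP1, against 11.4, 13.5 and 11.4 CPM in libraries labelled sh-Luc. The 3 libraries labelled sh-PHLPP1 lay below the 3 of sh-Luc, with a log2 fold change of -0.57 ± 0.14 (edgeR adjusted p = 0.00385). In untreated cells it had 17.3, 14.6 and 14.0 CPM in sh-PHLPP1 and 12.4, 14.4 and 13.3 CPM in sh-Luc, and those groups overlapped (log2 fold change 0.19, edgeR adjusted p = 0.279). The shRNA label was thus matched by a lower level of its target after OxLDL but not without it, and the libraries are named here as labelled. The difference between the lines changed with OxLDL by -0.77 (edgeR interaction, adjusted p = 0.0133), or by -0.74 without both untreated libraries that stand apart. Phlpp2, the related phosphatase, had 7.03, 6.57 and 4.15 CPM in libraries labelled sh-PHLPP1, against 9.79, 8.24 and 7.91 CPM in libraries labelled sh-Luc. Its log2 fold change was -0.54 ± 0.19 (edgeR adjusted p = 0.0276). The Phlpp2 call by edgeR was lost without library 3 of sh-PHLPP1 (log2 fold change -0.36, adjusted p = 0.0731) and without library 1 of sh-Luc (-0.46, adjusted p = 0.0934).

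Genes of AKT, mTOR and AMPK signalling were mostly lower in sh-PHLPP1 cells after OxLDL. Of 31 members tested out of 32, 18 were lower and 2 higher, with a median log2 fold change of -0.54 beside 0.01 over all genes. Akt1, an AKT kinase present in most tissues, had 208, 221 and 165 CPM in libraries labelled sh-PHLPP1, against 454, 492 and 481 CPM in libraries labelled sh-Luc. The groups did not overlap (log2 fold change -1.26 ± 0.12, edgeR adjusted p = 9.82e-06). Gsk3b, a kinase that AKT inhibits, was 1 of the 2 higher members, with 200.3, 182 and 190.2 CPM in libraries labelled sh-PHLPP1, against 89.6, 87.2 and 92.2 CPM in libraries labelled sh-Luc. Mtor, the growth kinase, and Rptor, its partner in complex 1, had log2 fold changes of -1.05 ± 0.14 and -1.31 ± 0.23. Pik3cg, a PI3-kinase that acts upstream of AKT, had a log2 fold change of -1.40 ± 0.15. Camkk2 and Stk11, the kinases that activate AMPK, fell by 0.91 and 0.72 on the log2 scale. The AMPK catalytic subunit Prkaa1 had a log2 fold change of -0.043 ± 0.089 and did not pass the test (edgeR adjusted p = 0.703). The other catalytic subunit, Prkaa2, had 0 counts in all 12 libraries, and Mlxipl, which encodes the lipogenic factor ChREBP, had 2 counts in the 12 libraries together. In untreated cells 6 members were higher and 2 lower, beside 14.9% of all genes higher and 12.2% lower. Without both libraries that stand apart, 7 members were higher and 6 lower, beside 24.5% and 22.5% of all genes.

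Inflammatory cytokines, chemokines and effectors showed the widest shift of the lists described here, with 24 of 25 tested members higher and 0 lower out of 26. Their median log2 fold change was 3.39, or 3.30 with Il12b set at its lowest possible fold. That gene encodes the shared subunit of interleukins 12 and 23. It had 1.42, 1.48 and 1.33 CPM in sh-PHLPP1 and was at 0 counts in all 3 sh-Luc libraries, so its level was at least 9.87-fold higher against a limit of 3 counts per library.

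Prostaglandin synthase 2, Ptgs2 (chr1:150100031-150108227), which makes prostaglandins in inflammation, had 14507, 14072 and 18844 CPM in libraries labelled sh-PHLPP1, against 566, 809 and 742 CPM in libraries labelled sh-Luc. Every library labelled sh-PHLPP1 was far above the sh-Luc libraries, a 22.4-fold difference (log2 fold change 4.49 ± 0.46, edgeR adjusted p = 1.43e-05). Il6 (chr5:30013114-30019981), a fever and acute-phase cytokine, had 47.0, 45.7 and 69.0 CPM in libraries labelled sh-PHLPP1, against 0.439, 0.552 and 0.685 CPM in libraries labelled sh-Luc. The groups were far apart, with a log2 fold change of 6.60 ± 0.25 (edgeR adjusted p = 9.34e-09). Il1b (chr2:129364570-129371139), the precursor of interleukin 1β, had 28.0, 27.4 and 34.3 CPM in libraries labelled sh-PHLPP1, against 0.790, 1.03 and 0.810 CPM in libraries labelled sh-Luc, a log2 fold change of 5.07 ± 0.27. Tnf (chr17:35199381-35202007), the tumour necrosis factor, had 3128, 3403 and 4579 CPM in libraries labelled sh-PHLPP1, against 653, 880.3 and 724 CPM in libraries labelled sh-Luc. Library 3 was the highest of sh-PHLPP1, the groups did not overlap, and the log2 fold change was 2.30 ± 0.33 (edgeR adjusted p = 0.000144).

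Among chemokines, which recruit leukocytes, the neutrophil attractant Cxcl2 (chr5:90903871-90905938) had 16819, 17282 and 23695 CPM in libraries labelled sh-PHLPP1, against 1678, 2056 and 1763 CPM in libraries labelled sh-Luc. Library 3 was again the highest of the sh-PHLPP1 libraries, and the log2 fold change was 3.39 ± 0.27 (edgeR adjusted p = 2.05e-06). Ccl5 (chr11:83525778-83530518), which attracts T cells and monocytes, had 230.1, 222 and 278 CPM in libraries labelled sh-PHLPP1, against 3.07, 3.09 and 3.05 CPM in libraries labelled sh-Luc. The sh-Luc libraries lay almost at one level, and the difference was 79.0-fold (log2 fold change 6.30 ± 0.18, edgeR adjusted p = 5.48e-10). Cxcl10 (chr5:92346638-92348889), a chemokine that interferon also induces, had 246, 253 and 384 CPM in libraries labelled sh-PHLPP1, against 7.51, 9.16 and 8.72 CPM in libraries labelled sh-Luc, a log2 fold change of 5.12 ± 0.45. Ccl3, a monocyte attractant, had 12350, 13010 and 21320 CPM in libraries labelled sh-PHLPP1, against 2900, 2859 and 2960 CPM in libraries labelled sh-Luc. Ccl4 had a log2 fold change of 1.33 ± 0.23, and the monocyte attractant Ccl2 one of 0.97 ± 0.23 (edgeR adjusted p = 0.00403).

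Growth factors for myeloid cells were higher too. Csf3 (chr11:98701263-98703629), which drives neutrophil production, had 5300, 5879.8 and 7648 CPM in libraries labelled sh-PHLPP1, against 455, 536 and 462 CPM in libraries labelled sh-Luc. Csf2 (chr11:54247271-54249667), which drives granulocytes and macrophages, had 71.7, 85.4 and 104 CPM in libraries labelled sh-PHLPP1, against 0.571, 1.47 and 1.25 CPM in libraries labelled sh-Luc. Lif (chr11:4257557-4272514), a cytokine of the interleukin 6 family, had 637, 643 and 515 CPM in libraries labelled sh-PHLPP1, against 7.77, 10.4 and 9.22 CPM in libraries labelled sh-Luc. None of these 3 genes overlapped between the groups, and their log2 fold changes were 3.70 ± 0.30, 6.30 ± 0.42 and 6.03 ± 0.37 in the order named. Il23a, the specific subunit of interleukin 23, had 48.7, 53.4 and 78.7 CPM in libraries labelled sh-PHLPP1, against 0.659, 1.14 and 1.12 CPM in libraries labelled sh-Luc. Lcn2 (chr2:32384633-32388252), a secreted protein that withholds iron from bacteria, had 1338, 1323 and 1818 CPM in libraries labelled sh-PHLPP1, against 18.05, 20.4 and 19.1 CPM in libraries labelled sh-Luc, a 77.8-fold difference (log2 fold change 6.28 ± 0.17, edgeR adjusted p = 4.55e-10).

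Counter-regulators were among the higher members. Il1rn, the interleukin 1 receptor antagonist, had a log2 fold change of 2.08 ± 0.50. Il10, the anti-inflammatory cytokine, had 4.12, 5.51 and 7.25 CPM in libraries labelled sh-PHLPP1, against 1.36, 1.07 and 2.31 CPM in libraries labelled sh-Luc, with a log2 fold change of 1.87 ± 0.67 (edgeR adjusted p = 0.0316). The Il10 call was lost without sh-PHLPP1 library 2 or 3 and without sh-Luc library 1 or 2. Nos2, the inducible nitric oxide synthase, was the member that did not pass the test. It had 305, 307 and 262 CPM in libraries labelled sh-PHLPP1, against 246, 338 and 308 CPM in libraries labelled sh-Luc, and the groups overlapped (log2 fold change -0.029 ± 0.15).

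**Figure D1:**
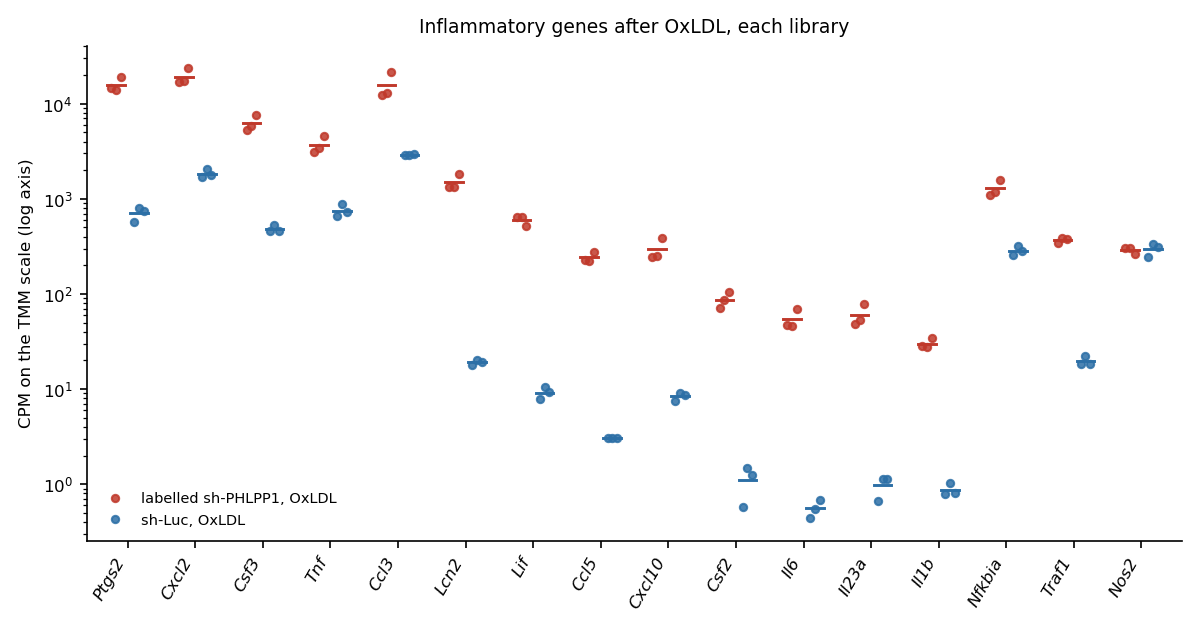
Levels of 16 inflammatory and NF-kB genes in CPM (log axis) after OxLDL, with dots for single libraries, bars for group means, and sh-PHLPP1 drawn left of sh-Luc for each gene. Nos2 is the gene where the groups overlap, and Ccl5 sits at 230.1, 222 and 278 CPM in sh-PHLPP1 against 3.07, 3.09 and 3.05 CPM in sh-Luc.

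The inflammatory list mostly stood the other way in untreated cells. There, 14 of the 25 inflammatory members were lower in sh-PHLPP1 and 2 higher (median log2 fold change -1.23), beside 12.2% and 14.9% of all genes. Without both libraries that stand apart, 15 were lower and 2 higher (median log2 fold change -1.57), beside 22.5% and 24.5% of all genes. Ptgs2, for example, had 41.2, 47.5 and 46.6 CPM in untreated sh-PHLPP1 and 142, 549 and 158 CPM in untreated sh-Luc, where library 2, one of those that stand apart, was the highest. The change of the line difference with OxLDL was positive for 22 of 25 members and negative for 0. Over all genes it was called positive for 11.1% and negative for 13.6%, 24.6% in either direction. Without both libraries it was positive for 23 members and negative for 0, beside 16.7% and 23.2% of all genes.

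NF-kB subunits, inhibitors and feedback genes were higher as well, with 18 of 20 members higher, 0 lower and a median log2 fold change of 1.52. Among the subunits, Nfkb2 had 477, 477 and 456 CPM in libraries labelled sh-PHLPP1, against 78.5, 93.8 and 79.8 CPM in libraries labelled sh-Luc. The groups were well apart (log2 fold change 2.48 ± 0.15). Relb and Nfkb1 had log2 fold changes of 1.58 ± 0.16 and 0.86 ± 0.14, and Rela, the main activating subunit, had 0.011 ± 0.11 and did not pass the test. Of the inhibitors, Nfkbia (chr12:55489410-55492647), which encodes IκBα and is itself an NF-kB target, had 1089, 1188 and 1578 CPM in libraries labelled sh-PHLPP1, against 257, 319.5 and 282 CPM in libraries labelled sh-Luc. Its log2 fold change was 2.17 ± 0.20 (edgeR adjusted p = 5.52e-06). Tnfaip3, a deubiquitinase that shuts the pathway down, had a log2 fold change of 1.505 ± 0.34, and Zc3h12a, a nuclease that destroys cytokine mRNA, had 0.99 ± 0.18. Traf1 (chr2:34941750-34961772), an adaptor of TNF receptors, had 346, 391.5 and 377 CPM in libraries labelled sh-PHLPP1, against 18.2, 22.1 and 18.5 CPM in libraries labelled sh-Luc, a 18.9-fold difference (log2 fold change 4.24 ± 0.12, edgeR adjusted p = 4.55e-10). In untreated cells 3 of the 20 were higher and 6 lower (14.9% and 12.2% of all genes), or 5 and 8 without both libraries that stand apart (24.5% and 22.5% of all genes), so the higher members were as common as among all genes. The line difference grew more positive with OxLDL in 17 members and more negative in 0, beside 11.1% and 13.6% of all genes. Without both libraries it did so in 18 and 0, beside 16.7% and 23.2% of all genes.

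Promoters of some genes of these lists are shown as a description. Each window runs from 250 bases before to 50 after a RefSeq gene start (GRCm38.p6), printed 5′ to 3′ on the strand of the gene. Capitals mark the NF-kB motif, searched on both strands with its middle base left free.
Il6 (chr5:30012864-30013163, plus strand): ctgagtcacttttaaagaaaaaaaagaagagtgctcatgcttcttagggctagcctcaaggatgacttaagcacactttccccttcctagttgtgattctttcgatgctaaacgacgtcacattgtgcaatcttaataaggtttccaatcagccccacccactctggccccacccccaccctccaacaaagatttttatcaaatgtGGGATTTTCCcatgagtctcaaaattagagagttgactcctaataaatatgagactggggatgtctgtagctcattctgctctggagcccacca
Cxcl2 (chr5:90903649-90903948, plus strand): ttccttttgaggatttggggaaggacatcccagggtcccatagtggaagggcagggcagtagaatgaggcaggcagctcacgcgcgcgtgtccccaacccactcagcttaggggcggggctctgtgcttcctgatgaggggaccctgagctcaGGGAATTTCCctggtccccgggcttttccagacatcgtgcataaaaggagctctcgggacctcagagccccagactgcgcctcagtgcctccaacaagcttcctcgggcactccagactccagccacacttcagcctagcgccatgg
Cxcl3 (chr5:90785851-90786150, plus strand): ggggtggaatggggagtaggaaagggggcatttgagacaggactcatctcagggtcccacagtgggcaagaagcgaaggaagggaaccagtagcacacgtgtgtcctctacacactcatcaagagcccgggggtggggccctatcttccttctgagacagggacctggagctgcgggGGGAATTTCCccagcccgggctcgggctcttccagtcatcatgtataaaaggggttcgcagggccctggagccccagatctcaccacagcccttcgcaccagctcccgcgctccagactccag
Nfkbia (chr12:55492598-55492897, minus strand): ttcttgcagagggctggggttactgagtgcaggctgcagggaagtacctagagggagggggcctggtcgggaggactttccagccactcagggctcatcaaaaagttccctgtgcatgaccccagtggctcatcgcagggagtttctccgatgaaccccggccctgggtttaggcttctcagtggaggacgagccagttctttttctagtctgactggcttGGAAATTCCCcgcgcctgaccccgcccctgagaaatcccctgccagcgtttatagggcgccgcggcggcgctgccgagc
The match began 44 bases before the gene start in Il6, 97 before it in Cxcl2, 73 before it in Cxcl3 and 29 before it in Nfkbia. These letters were present for 4 of the 17 inflammatory genes with a window (23.5%) and 2 of the 17 NF-kB genes (11.8%). They were present for 0.558% of 9324 tested genes and for 0.466% of the 27025 genes with a window. The AP-1 motif TGACTCA overlapped none of these 4 matches and was present for 5 of the 17 inflammatory genes (29.4%), against 4.48% of tested genes. The lists hold cytokine, chemokine and feedback genes that NF-kB is known to switch on, so these shares are no independent result. A match in letters is a description of the window and not of binding.

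AP-1, EGR and NR4A factors, early-response transcription factors, were less uniform, with 5 of 15 tested members higher and 2 lower (median log2 fold change 0.42), beside 27.6% of all genes in each direction. Without both untreated libraries that stand apart, 8 were higher and 5 lower, beside 32.7% and 33.7% of all genes. Junb had 1.79 ± 0.20, Nr4a1 1.62 ± 0.20 and Maff 1.15 ± 0.16 on the log2 scale, while Fos, Jun and Egr1 did not pass the test. Toll-like receptors and their adaptors had 8 of 18 members higher and 5 lower (median log2 fold change 0.10), beside 27.6% of all genes in each direction. Tlr2, which senses bacterial lipoproteins, had a log2 fold change of 1.42 ± 0.30, and the inhibitory kinase Irak3 had 1.53 ± 0.18. Tlr4, the lipopolysaccharide receptor, had a log2 fold change of -0.81 ± 0.21, Tlr7 had -1.22 ± 0.31, and Tlr13, a sensor of bacterial ribosomal RNA, had -2.18 ± 0.12.

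Interferon-induced genes were higher in part. Of 39 members tested out of 40, 19 were higher and 5 lower, with a median log2 fold change of 0.57. Isg15, a ubiquitin-like modifier, had 193, 202 and 321 CPM in libraries labelled sh-PHLPP1, against 29.5, 32.7 and 29.0 CPM in libraries labelled sh-Luc. Library 3 of sh-PHLPP1 was the highest, the groups did not overlap, and the log2 fold change was 2.97 ± 0.39 (edgeR adjusted p = 7.74e-05). Ifit1, which binds foreign RNA ends, had 85.2, 77.7 and 94.4 CPM in libraries labelled sh-PHLPP1, against 8.83, 8.46 and 9.47 CPM in libraries labelled sh-Luc, a log2 fold change of 3.27 ± 0.20. Rsad2, Oasl1 and the RNA sensor Ifih1 had log2 fold changes of 2.98 ± 0.20, 2.58 ± 0.16 and 2.18 ± 0.18, and Irf7, which amplifies interferon production, had 1.74 ± 0.27. Some members went the other way. Irgm1, Eif2ak2 and Oas3, also interferon-induced, had log2 fold changes of -0.87 ± 0.16, -0.68 ± 0.14 and -0.58 ± 0.13. In untreated cells 3 members were higher and 6 lower, the lower ones at a share near the 12.2% of all genes. Without both libraries that stand apart, 5 were higher and 18 lower, beside 24.5% and 22.5% of all genes, but without sh-PHLPP1 untreated library 1 alone 5 were higher and 5 lower.

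Promoters of interferon-induced genes are shown with the interferon-stimulated response element, the tandem GAAA motif with a free pair of bases between, in capitals where it was found on either strand.
Isg15 (chr4:156200769-156201068, minus strand): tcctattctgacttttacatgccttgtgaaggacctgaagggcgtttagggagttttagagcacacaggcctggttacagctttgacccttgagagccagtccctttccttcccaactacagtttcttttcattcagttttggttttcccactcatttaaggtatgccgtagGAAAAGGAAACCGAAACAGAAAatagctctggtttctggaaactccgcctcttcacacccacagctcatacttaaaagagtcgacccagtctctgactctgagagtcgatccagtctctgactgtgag
Ifit1 (chr19:34640639-34640938, plus strand): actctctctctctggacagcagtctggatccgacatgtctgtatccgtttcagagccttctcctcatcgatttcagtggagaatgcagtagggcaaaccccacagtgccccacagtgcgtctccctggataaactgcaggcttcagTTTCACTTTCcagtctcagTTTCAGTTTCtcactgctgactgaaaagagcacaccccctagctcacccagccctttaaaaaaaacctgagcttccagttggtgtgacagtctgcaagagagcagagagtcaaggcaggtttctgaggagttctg
In Isg15, 3 matches that overlap each other began 78, 72 and 66 bases before the gene start, and in Ifit1 the matches began 104 and 85 bases before it. The motif was present for 16 of the 29 interferon genes with a window (55.2%), against 4.00% of tested genes and 3.99% of all genes with a window. The list was chosen as genes known to be induced by interferon, so this share is no independent result.

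Antigen presentation genes were higher in 13 of 21 tested members and lower in 1 (median log2 fold change 0.70). Cd274, which encodes the checkpoint ligand PD-L1, had 136, 123 and 123.2 CPM in libraries labelled sh-PHLPP1, against 16.4, 19.0 and 16.9 CPM in libraries labelled sh-Luc. Cd40, which receives help from T cells, had 196, 203 and 236 CPM in libraries labelled sh-PHLPP1, against 12.5, 16.9 and 13.8 CPM in libraries labelled sh-Luc. Both were separated between the groups, with log2 fold changes of 2.87 ± 0.12 and 3.87 ± 0.36. Cd86, a costimulatory ligand, had a log2 fold change of 4.47 ± 0.59 after OxLDL and 3.46 in untreated cells. B2m, the light chain of MHC class I, had a log2 fold change of 1.25 ± 0.21. The class II gene H2-Eb1 was the lower member, at a log2 fold change of -2.30 ± 0.47. Reads of the closely related H2 genes may have been split between them, so single H2 values are uncertain. Among Fc receptors and proximal kinases, 5 of 12 were higher and 3 lower (median log2 fold change 0.31), beside 27.6% of all genes in each direction. Fcgr1, the high-affinity IgG receptor, had a log2 fold change of 2.43 ± 0.47, the inhibitory Fcgr2b had 2.17 ± 0.29, and the kinase Syk had -0.70 ± 0.14.

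DNA replication and mitosis genes were lower in sh-PHLPP1 cells. Of 35 replication genes, 34 were lower and 0 higher, with a median log2 fold change of -1.91. Of 30 mitosis genes, 30 were lower and 0 higher, with a median log2 fold change of -2.91. Mcm6 (chr1:128331590-128359664), a subunit of the replicative helicase, had 16.3, 18.01 and 15.1 CPM in libraries labelled sh-PHLPP1, against 209, 218 and 215 CPM in libraries labelled sh-Luc. The groups were far apart, a 13.0-fold lower level (log2 fold change -3.70 ± 0.37, edgeR adjusted p = 1.04e-05). Rrm2, the ribonucleotide reductase subunit that makes DNA precursors, had 24.2, 34.4 and 30.1 CPM in libraries labelled sh-PHLPP1, against 280.3, 247 and 286 CPM in libraries labelled sh-Luc. Pcna, the polymerase clamp, had 119.8, 143 and 169 CPM in libraries labelled sh-PHLPP1, against 347, 337 and 329.7 CPM in libraries labelled sh-Luc, a smaller difference of -1.23 ± 0.28 on the log2 scale. Cdt1, a licensing factor, was the replication gene that did not pass the test. It had 144, 157 and 142 CPM in libraries labelled sh-PHLPP1, against 169.7, 209.6 and 183 CPM in libraries labelled sh-Luc, without overlap.

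Ccne2 (chr4:11191351-11204779), the cyclin that starts S phase, had 1.62, 1.599 and 2.00 CPM in libraries labelled sh-PHLPP1, against 29.0, 19.8 and 29.0 CPM in libraries labelled sh-Luc, a log2 fold change of -3.90 ± 0.33. Its exons overlap those of Ints8 in the annotation, so reads of the 2 genes may not be told apart. Top2a, which untangles DNA, had 28.9, 36.6 and 34.9 CPM in libraries labelled sh-PHLPP1, against 243, 222 and 244 CPM in libraries labelled sh-Luc. Ccnb1, the mitotic cyclin, had 9.39, 10.7 and 10.8 CPM in libraries labelled sh-PHLPP1, against 70.8, 80.8 and 80.8 CPM in libraries labelled sh-Luc. Both were several-fold lower in every sh-PHLPP1 library, with log2 fold changes of -2.82 ± 0.46 and -2.91 ± 0.53. The mitotic kinase Plk1 and cyclin Ccna2 had log2 fold changes of -3.82 ± 0.52 and -3.80 ± 0.50. Mki67 (chr7:135689784-135716361), whose protein Ki-67 marks dividing cells, had 22.4, 24.8 and 20.6 CPM in libraries labelled sh-PHLPP1, against 265, 125 and 194 CPM in libraries labelled sh-Luc. The sh-Luc libraries spread widely, with library 2 the lowest, yet all lay above sh-PHLPP1 (log2 fold change -3.10 ± 0.41, edgeR adjusted p = 8.11e-05). Kif20a, a motor of cell division whose exons overlap Cdc23, had 2.30, 3.85 and 1.85 CPM in libraries labelled sh-PHLPP1, against 61.5, 63.7 and 66.0 CPM in libraries labelled sh-Luc.

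**Figure D2:**
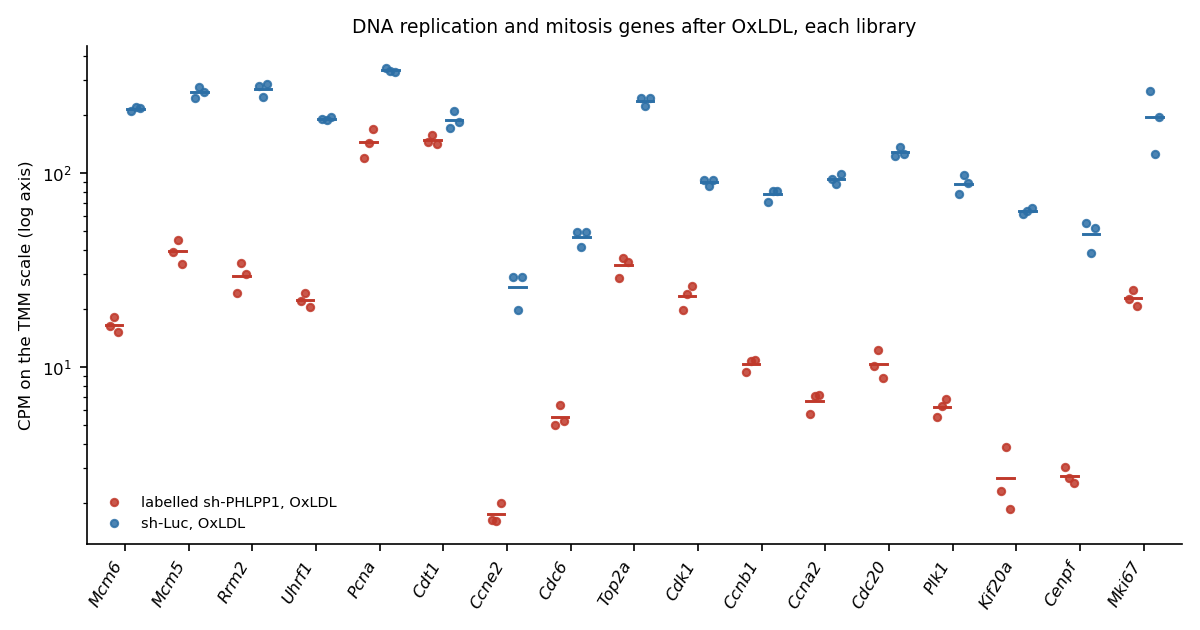
Levels of 17 replication and mitosis genes in CPM (log axis) after OxLDL, with dots for single libraries, bars for group means, and sh-PHLPP1 drawn left of sh-Luc for each gene. The sh-PHLPP1 dots lie below the sh-Luc dots in each gene drawn, least so for Cdt1 (144, 157 and 142 against 169.7, 209.6 and 183 CPM).

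The cell cycle difference between the lines was also seen without OxLDL, to an extent that depended on single libraries. In untreated cells 18 replication genes and 7 mitosis genes were lower and 0 higher, beside 12.2% of all genes lower and 14.9% higher. Without both untreated libraries that stand apart, 35 and 30 were lower (median log2 fold changes -1.34 and -1.83), beside 22.5% of all genes. Leaving out sh-PHLPP1 untreated library 1 alone also gave 35 and 30, and leaving out sh-Luc untreated library 2 alone gave 5 and 2. Each other untreated library left out gave fewer calls too. There were 4 and 0 without sh-PHLPP1 library 2 or 3, 11 and 0 without sh-Luc library 1, and 14 and 0 without sh-Luc library 3. Over all genes, 1599 were lower with every library and 3078 without sh-PHLPP1 library 1. There were 988 without sh-Luc library 2, 646 and 663 without sh-PHLPP1 libraries 2 and 3, and 1112 and 1178 without sh-Luc libraries 1 and 3. Untreated library 1 labelled sh-PHLPP1 had cell cycle genes at the level of sh-Luc. Kif20a, for example, had 95.9, 16.8 and 16.9 CPM in untreated sh-PHLPP1 and 101, 110.3 and 99.8 CPM in untreated sh-Luc. The line difference grew more negative with OxLDL in 12 replication and 18 mitosis genes, beside 13.6% of all genes. Without both libraries it did so in 21 and 23, beside 23.2% of all genes, and grew more positive in 2 and 0, beside 16.7%.

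Promoters of replication genes are shown with the E2F motif TTTCCCGC, searched on both strands, in capitals.
Mcm7 (chr5:138171834-138172133, minus strand): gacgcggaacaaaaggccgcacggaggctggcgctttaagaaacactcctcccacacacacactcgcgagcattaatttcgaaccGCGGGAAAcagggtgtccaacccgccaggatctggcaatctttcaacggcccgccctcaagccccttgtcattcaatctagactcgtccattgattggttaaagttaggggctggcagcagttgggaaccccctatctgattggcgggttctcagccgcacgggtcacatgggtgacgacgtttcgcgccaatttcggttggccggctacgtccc
Cdc6 (chr11:98907901-98908200, plus strand): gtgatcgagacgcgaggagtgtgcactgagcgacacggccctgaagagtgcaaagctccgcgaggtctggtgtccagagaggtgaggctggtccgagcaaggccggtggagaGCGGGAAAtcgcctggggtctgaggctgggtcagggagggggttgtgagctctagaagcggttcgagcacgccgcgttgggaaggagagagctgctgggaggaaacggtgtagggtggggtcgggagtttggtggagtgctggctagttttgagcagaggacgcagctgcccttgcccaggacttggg
Mcm3 (chr1:20820263-20820562, minus strand): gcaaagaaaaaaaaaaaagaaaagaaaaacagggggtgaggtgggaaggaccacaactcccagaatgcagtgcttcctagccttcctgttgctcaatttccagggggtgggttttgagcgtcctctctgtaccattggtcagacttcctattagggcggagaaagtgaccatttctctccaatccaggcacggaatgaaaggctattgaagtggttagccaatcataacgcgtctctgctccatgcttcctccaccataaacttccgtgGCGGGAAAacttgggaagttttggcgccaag
The match began 165 bases before the gene start in Mcm7 and 138 before it in Cdc6, and 19 bases into the gene in Mcm3. Mcm7 and Mcm3 encode helicase subunits, Cdc6 loads the helicase, and their log2 fold changes were -2.80 ± 0.43, -1.91 ± 0.29 and -3.07 ± 0.27. These letters were present for 6 of the 29 replication genes with a window (20.7%) and 3.85% of the 26 mitosis genes, against 2.48% of tested genes and 1.24% of all genes with a window. The lists were chosen by known function, with earlier results of these data known, so these shares are no independent result.

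p53 targets and growth arrest genes had 11 of 18 tested members higher and 1 lower (median log2 fold change 0.61). Gadd45a and Gadd45b, stress sensors that can halt division, had log2 fold changes of 3.00 ± 0.27 and 2.77 ± 0.16. Fas, the death receptor, had 92.0, 93.1 and 124 CPM in libraries labelled sh-PHLPP1, against 8.12, 10.7 and 10.4 CPM in libraries labelled sh-Luc, a log2 fold change of 3.40 ± 0.27. Cdkn1a, which encodes the cell cycle inhibitor p21, Trp53 itself and Mdm2 did not pass the test, with log2 fold changes of 0.22 ± 0.16, 0.017 ± 0.13 and -0.075 ± 0.14. In the BCL2 family and caspases, 5 of 16 tested members were higher and 7 lower, beside 27.6% of all genes in each direction. The inflammatory caspases Casp4 and Casp1 had log2 fold changes of 2.13 ± 0.25 and 1.00 ± 0.18, the survival gene Bcl2l1 had 0.81 ± 0.13, and the apoptotic Casp9 and Bid had -0.94 ± 0.12 and -1.10 ± 0.17.

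Genes of lipid synthesis were lower in sh-PHLPP1 cells. In the cholesterol synthesis and LDL uptake list, 19 of 24 tested members were lower and 0 higher (median log2 fold change -1.05). Acat2 (chr17:12942890-12960747), which joins acetyl-CoA units, had 6.22, 6.93 and 7.03 CPM in libraries labelled sh-PHLPP1, against 42.6, 36.3 and 43.4 CPM in libraries labelled sh-Luc. Its groups were far apart (log2 fold change -2.60 ± 0.41, edgeR adjusted p = 0.000251). Idi1, an isomerase of the isoprenoid steps, had 3.38, 2.73 and 1.93 CPM in libraries labelled sh-PHLPP1, against 14.1, 12.9 and 13.3 CPM in libraries labelled sh-Luc, a log2 fold change of -2.32 ± 0.31. Insig1, a sterol-sensing regulator, had 21.02, 20.3 and 18.7 CPM in libraries labelled sh-PHLPP1, against 95.5, 87.8 and 99.9 CPM in libraries labelled sh-Luc, and its groups did not overlap either (log2 fold change -2.24 ± 0.33). Srebf2, the factor behind the list, had a log2 fold change of -0.64 ± 0.29 and did not pass the test. In untreated cells 15 of the 24 were already lower and 0 higher, beside 12.2% of all genes lower and 14.9% higher. Without both libraries that stand apart, 24 were lower and 0 higher, beside 22.5% and 24.5% of all genes. The lower members were 4 without sh-PHLPP1 untreated library 2, 5 without library 3, and 7 and 10 without sh-Luc untreated libraries 1 and 3. In that order, 646, 663, 1112 and 1178 of all genes were lower.

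In fatty acid and triglyceride synthesis, 13 of 22 tested members were lower and 5 higher (median log2 fold change -0.90). Fasn (chr11:120805846-120824547), the fatty acid synthase, had 57.7, 66.4 and 47.4 CPM in libraries labelled sh-PHLPP1, against 383, 453 and 449 CPM in libraries labelled sh-Luc. Each sh-PHLPP1 library was far below each sh-Luc library, 7.49-fold in the fit (log2 fold change -2.90 ± 0.31, edgeR adjusted p = 1.96e-05). The difference grew more negative with OxLDL by -1.595, or by -1.20 without both untreated libraries that stand apart. Scd2 (chr19:44293674-44306864), a fatty acid desaturase, had 161, 165 and 179.6 CPM in libraries labelled sh-PHLPP1, against 859, 882 and 953 CPM in libraries labelled sh-Luc (log2 fold change -2.41 ± 0.33). Acaca, the enzyme that makes the malonyl-CoA for Fasn, had a log2 fold change of -0.92 ± 0.15, the desaturase Fads2 -2.25 ± 0.47 and the elongase Elovl6 -1.44 ± 0.14.

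Srebf1, which encodes the lipogenic factor SREBP1, had 105, 119 and 113 CPM in libraries labelled sh-PHLPP1, against 188, 322 and 288 CPM in libraries labelled sh-Luc. Its log2 fold change was -1.24 ± 0.39 (edgeR adjusted p = 0.0174), and the call was lost without sh-PHLPP1 library 1 (-1.20) or 3 (-1.26) or sh-Luc library 2 (-1.08). Its exons overlap Rai1 on the opposite strand. The desaturase Scd1 had a log2 fold change of -1.55 ± 0.51 (edgeR adjusted p = 0.0211), and its call was lost without any 1 of the 3 sh-PHLPP1 libraries. The 5 higher members were Dgat2 and Dgat1, which join the last fatty acid to triglyceride, Lpin2, which acts before them, the acyl-CoA synthetase Acsl4, and Mlx, the partner of ChREBP. Of these, Dgat2 had 3.24, 2.55 and 3.85 CPM in libraries labelled sh-PHLPP1, against 0.571, 0.846 and 0.810 CPM in libraries labelled sh-Luc. The other 4 lost their call when library size alone was used for scaling.

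Uptake and storage genes went in both directions. Of 14 tested members of the uptake list, out of 18, 3 were higher and 3 lower (median log2 fold change -0.24). These were no larger shares than the 27.6% of all genes in each direction. Without both untreated libraries that stand apart, 4 were higher and 7 lower, beside 32.7% and 33.7% of all genes. Cd36 (chr5:17781690-17888801), the receptor for oxidised lipids and fatty acids, had 315, 285 and 278 CPM in libraries labelled sh-PHLPP1, against 376, 432 and 450.2 CPM in libraries labelled sh-Luc. The groups did not overlap, but the log2 fold change of -0.52 ± 0.24 did not pass the test (edgeR adjusted p = 0.0851). In untreated cells Cd36 had 26.4, 20.6 and 17.6 CPM in sh-PHLPP1 and 133, 282 and 146 CPM in sh-Luc (log2 fold change -3.12), so the change of the line difference with OxLDL was 2.60, or 2.34 without both libraries that stand apart. Msr1 (chr8:39581685-39642673), the class A scavenger receptor, had 853, 832 and 1067 CPM in libraries labelled sh-PHLPP1, against 462, 464 and 502 CPM in libraries labelled sh-Luc, a log2 fold change of 0.95 ± 0.15 (edgeR adjusted p = 0.000253). Cxcl16, a membrane chemokine that also binds OxLDL, had 115, 120.1 and 125 CPM in libraries labelled sh-PHLPP1, against 14.4, 13.6 and 13.5 CPM in libraries labelled sh-Luc. It was the member with the highest log2 fold change of the called ones, 3.12 ± 0.13.

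Fabp4, a fatty acid carrier of foam cells, had 42.7, 52.8 and 74.1 CPM in libraries labelled sh-PHLPP1, against 102, 91.3 and 101 CPM in libraries labelled sh-Luc, a log2 fold change of -0.80 ± 0.23 after OxLDL and -5.32 in untreated cells. Lpl, which frees fatty acids from lipoproteins, and Scarb1, an HDL receptor, had log2 fold changes of -0.97 ± 0.25 and -1.10 ± 0.14. Of 14 tested members of the efflux list, 4 were higher and 2 lower (median log2 fold change 0.23), beside 27.6% of all genes in each direction. Abca1, the cholesterol exporter, had 10.5, 8.41 and 6.44 CPM in libraries labelled sh-PHLPP1, against 2.55, 4.12 and 3.24 CPM in libraries labelled sh-Luc, a log2 fold change of 1.35 ± 0.38 (edgeR adjusted p = 0.0102). Mylip, an LXR target, had a log2 fold change of 1.46 ± 0.21, while Abcg1, another LXR-driven exporter, had -0.18 ± 0.33 and did not pass the test. Of 8 tested lipid droplet genes, 2 were higher and 1 lower, beside 27.6% of all genes in each direction. Hilpda, a droplet protein that slows lipolysis, had 261, 271 and 315 CPM in libraries labelled sh-PHLPP1, against 97.5, 114 and 93.8 CPM in libraries labelled sh-Luc. Plin2, the droplet coat protein of foam cells, had 2099, 1955 and 1696 CPM in libraries labelled sh-PHLPP1, against 1371, 1501 and 1330 CPM in libraries labelled sh-Luc, without overlap (log2 fold change 0.45 ± 0.14, edgeR adjusted p = 0.0142). The Plin2 call was lost with library size alone (0.20) and without sh-PHLPP1 library 1 (0.38) or sh-Luc library 1 (0.42) or 3 (0.40).

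**Figure D3:**
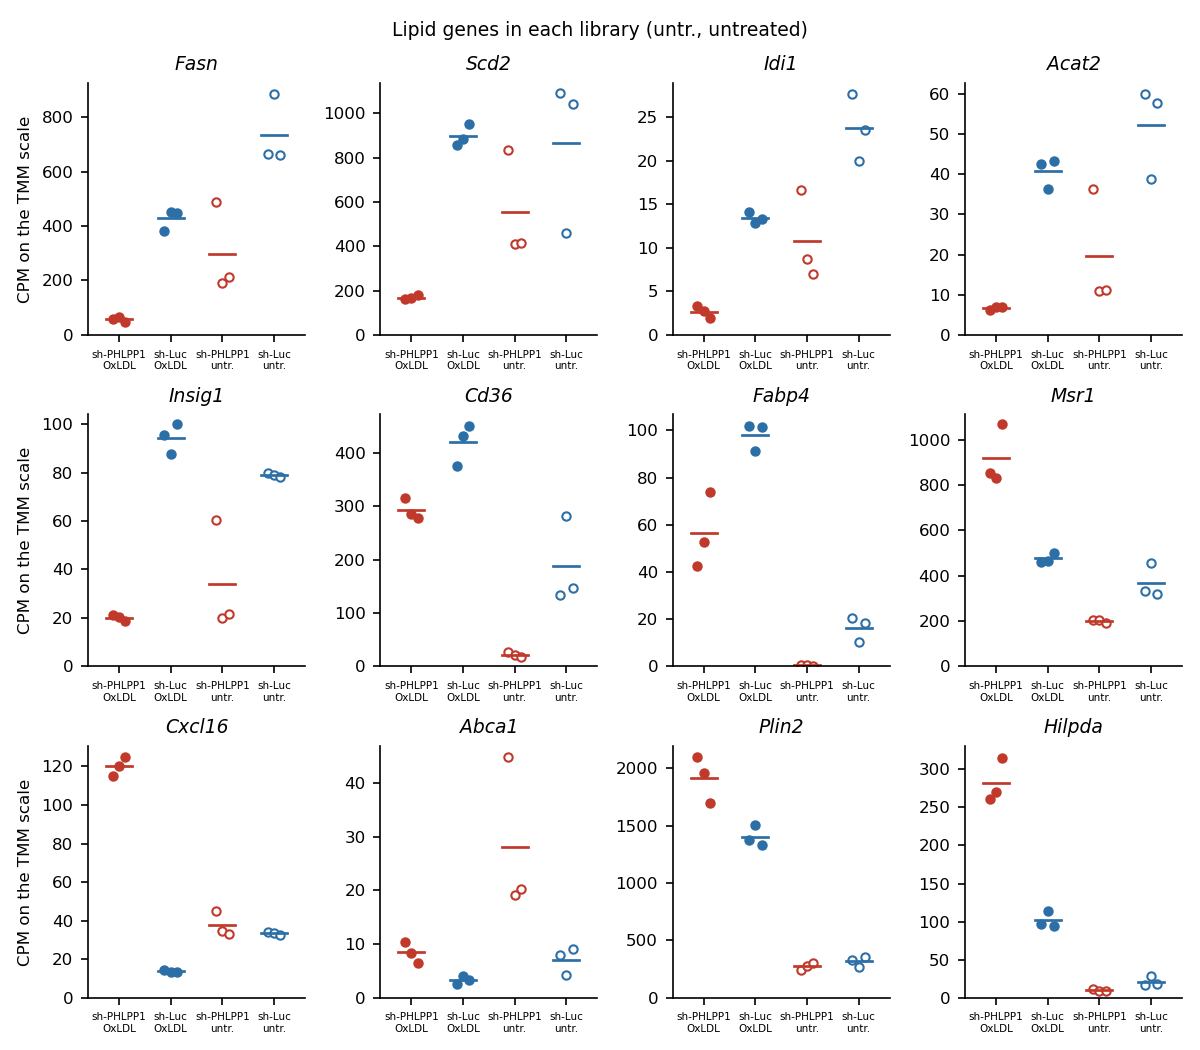
Levels of 12 lipid genes in CPM in each of the 12 libraries, with dots for libraries, bars for group means, and groups from left to right sh-PHLPP1 OxLDL, sh-Luc OxLDL, sh-PHLPP1 untreated and sh-Luc untreated. Fasn and Acat2 lie lower in sh-PHLPP1 after OxLDL, whereas Cd36 is low in untreated sh-PHLPP1 (26.4, 20.6 and 17.6 CPM) and near the sh-Luc level after OxLDL.

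Energy and redox genes shifted less uniformly. In fatty acid oxidation, 4 of 21 tested members were higher and 8 lower (median log2 fold change -0.18). Cpt1a, which admits fatty acids to mitochondria, had 16.2, 13.4 and 12.4 CPM in libraries labelled sh-PHLPP1, against 35.7, 36.2 and 33.1 CPM in libraries labelled sh-Luc, a log2 fold change of -1.32 ± 0.18 after OxLDL and 0.58 in untreated cells. Angptl4 and Pparg, a target and a receptor of fatty acid signalling, had log2 fold changes of -2.41 ± 0.25 and -1.26 ± 0.32. In glycolysis 8 of 19 members were lower and 0 higher (median log2 fold change -0.35). Pfkl, a phosphofructokinase subunit, had 52.99, 56.4 and 47.1 CPM in libraries labelled sh-PHLPP1, against 287, 322 and 286 CPM in libraries labelled sh-Luc. It stood clearly apart between groups (-2.52 ± 0.15), while Ldha had a log2 fold change of -0.89 ± 0.11 and Pkm -0.76 ± 0.11. In untreated cells, with every library kept, 9 of the 19 glycolysis genes were lower and 0 higher, beside 12.2% and 14.9% of all genes. Of the respiratory chain, 8 of 24 genes were higher after OxLDL and 4 lower (median log2 fold change 0.07), beside 27.6% of all genes in each direction.

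In the NRF2 and oxidative stress list, 14 of 25 tested members were lower and 2 higher (median log2 fold change -0.59). The glutathione synthesis genes Gclc and Gclm had log2 fold changes of -1.40 ± 0.19 and -1.45 ± 0.27, the glutathione reductase Gsr -1.49 ± 0.12 and the pentose phosphate enzyme G6pdx -1.15 ± 0.10. Sod2, the mitochondrial superoxide dismutase and also an NF-kB target, was higher, with 722, 710.3 and 897 CPM in libraries labelled sh-PHLPP1, against 165, 167 and 164 CPM in libraries labelled sh-Luc. Hmox1, the heme oxygenase, had 1012, 977 and 1080 CPM in libraries labelled sh-PHLPP1, against 1786, 1585 and 1556 CPM in libraries labelled sh-Luc, and its log2 fold change of -0.68 ± 0.42 did not pass the test. Fth1, the ferritin heavy chain that stores iron, had 29050, 28380 and 37610 CPM in libraries labelled sh-PHLPP1, against 15930, 16070 and 16210 CPM in libraries labelled sh-Luc, and its processed copies may share its reads. Tfrc, the transferrin receptor, had a log2 fold change of -1.73 ± 0.50. Of 14 tested hypoxia targets, 7 were lower and 2 higher (median log2 fold change -0.25). Pdk1, a kinase that inhibits pyruvate dehydrogenase, had 9.26, 11.8 and 9.77 CPM in libraries labelled sh-PHLPP1, against 70.8, 67.8 and 70.8 CPM in libraries labelled sh-Luc. Its log2 fold change was -2.76 ± 0.17 after OxLDL and 0.00 in untreated cells.

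Autophagy genes were higher in 11 of 20 tested members and lower in 3 (median log2 fold change 0.36). Sqstm1 (chr11:50199366-50210827), the autophagy receptor p62, had 20660, 20650 and 19810 CPM in libraries labelled sh-PHLPP1, against 3323, 3994 and 3325 CPM in libraries labelled sh-Luc, a 5.74-fold difference (log2 fold change 2.52 ± 0.20, and 1.11 in untreated cells). Map1lc3a, a membrane tag of autophagosomes, had a log2 fold change of 1.88 ± 0.32. In the integrated stress response 8 of 19 genes were higher and 4 lower (median log2 fold change 0.56). Ddit3, its transcription factor CHOP, had 381, 379.8 and 492 CPM in libraries labelled sh-PHLPP1, against 58.4, 74.0 and 53.1 CPM in libraries labelled sh-Luc. The groups did not overlap, and the log2 fold change was 2.75 ± 0.34 after OxLDL and 2.26 in untreated cells. Asns, Atf3 and Ppp1r15a had log2 fold changes of 1.495 ± 0.28, 1.73 ± 0.40 and 1.66 ± 0.15, and Atf4, the factor above them, had 0.30 ± 0.33 and did not pass the test. Endoplasmic reticulum chaperones and sensors had 9 of 22 members lower and 3 higher (median log2 fold change -0.32), and lysosome and V-ATPase genes had 9 of 24 higher and 4 lower (median log2 fold change 0.24). Leaving out single libraries gave 5 to 11 lower members in the reticulum list. Without sh-Luc OxLDL library 1, the lysosome list had 5 higher members. In untreated cells, with every library kept, 10 of the 22 reticulum genes were lower and 2 higher, beside 12.2% and 14.9% of all genes.

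Macrophage identity genes differed gene by gene, with 8 of 17 tested members higher and 4 lower (median log2 fold change 0.49). Adgre1, the F4/80 antigen, had 357, 305 and 236 CPM in libraries labelled sh-PHLPP1, against 96.3, 153 and 132 CPM in libraries labelled sh-Luc (log2 fold change 1.23 ± 0.25). Csf1r, the receptor for the macrophage growth factor, had 458, 488 and 456 CPM in libraries labelled sh-PHLPP1, against 819.9, 1132 and 1062 CPM in libraries labelled sh-Luc (log2 fold change -1.10 ± 0.30). Lyz2, lysozyme, was lower in every sh-PHLPP1 library, with 8649, 8288 and 8827 CPM in libraries labelled sh-PHLPP1, against 13170, 13300 and 14080 CPM in libraries labelled sh-Luc. Irf8, a factor of monocyte and macrophage fate, had a log2 fold change of 1.18 ± 0.23, and the lipid-sensing receptor Trem2 had -1.72 ± 0.22.

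The osteoclast programme, which RAW 264.7 cells can enter, was lower in 7 of 13 tested members and higher in 2 (median log2 fold change -0.67). Ctsk (chr3:95499256-95509362), the bone-degrading cathepsin K, had 1.49, 2.25 and 2.37 CPM in libraries labelled sh-PHLPP1, against 149, 181 and 167 CPM in libraries labelled sh-Luc. The groups were far apart (log2 fold change -6.35 ± 0.58, and -6.34 in untreated cells), so the difference was also there without OxLDL. The 6 osteoclast markers, 1 of them at 0, summed to 44.5 to 60.8 CPM in sh-PHLPP1 and 270 to 337 CPM in sh-Luc, and their part in the other results was not tested. The integrin Itgb3 and the fusion gene Dcstamp had log2 fold changes of -1.99 ± 0.38 and -1.51 ± 0.38, and Mmp9 was higher, with 629.8, 689.6 and 736 CPM in libraries labelled sh-PHLPP1, against 75.7, 155 and 126 CPM in libraries labelled sh-Luc. Among matrix proteases the collagenase Mmp13 and the membrane protease Mmp14 had log2 fold changes of 7.57 ± 0.40 and 3.83 ± 0.38. Spp1, osteopontin, a marker of lipid-laden macrophages, had 52020, 53970 and 81700 CPM in libraries labelled sh-PHLPP1, against 28970, 29820 and 30880 CPM in libraries labelled sh-Luc, a log2 fold change of 1.07 ± 0.25.

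Genes of the cytosolic ribosome were higher in 63 of 77 tested members out of 81 and lower in 0, with a median log2 fold change of 0.82. The list averaged 6.66, 6.74 and 7.15 in log2 CPM in libraries labelled sh-PHLPP1, against 6.16, 6.13 and 6.20 in libraries labelled sh-Luc, so library 3 of sh-PHLPP1, the one least like its group, stood highest. Without that library 60 members were higher. Mitochondrial ribosomal proteins were higher in 42 of 76 and lower in 6 (median log2 fold change 0.38), again highest in library 3 of sh-PHLPP1 (its members averaged 5.60, 5.66 and 5.95 log2 CPM in the 3 sh-PHLPP1 libraries, while sh-Luc libraries had 5.39, 5.35 and 5.36), with 35 higher without it. Proteasome subunits were higher in 18 of 38 and lower in 7 (median log2 fold change 0.24). Many ribosomal genes have near-identical processed copies that may share reads, so single values are uncertain. With library size alone, 23 mitochondrial ribosomal and 11 proteasome genes were higher. Of 20 aminoacyl-tRNA synthetases, 8 were higher and 3 lower (median log2 fold change 0.28), and of 14 tested clock genes 3 were higher and 6 lower, with Cry1 at 1.41 ± 0.12 and Nr1d2 at -1.91 ± 0.25.

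**Figure D4:**
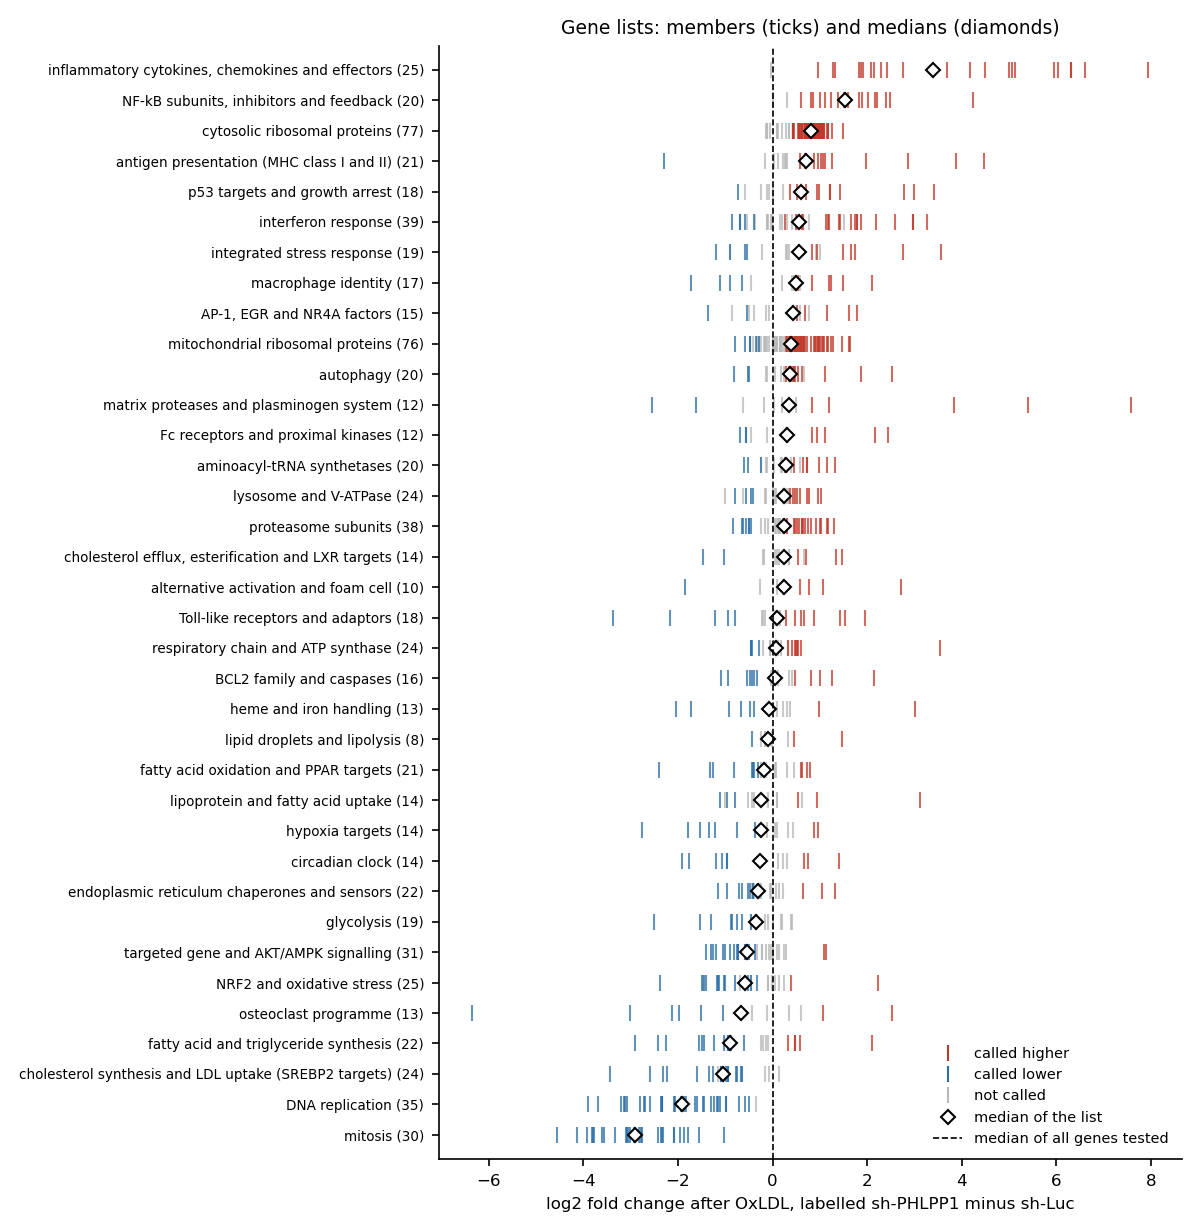
Log2 fold change after OxLDL (sh-PHLPP1 over sh-Luc) of the members of 36 gene lists, with a tick for each member, a diamond for the list median and a dashed line at the median of all genes (0.01). The inflammatory list (median 3.39) and the mitosis list (median log2 fold change -2.91) lie at the ends.

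The genes with the largest differences lay partly outside these lists. Marcks, an actin-binding substrate of protein kinase C, had 96.0, 97.7 and 104 CPM in libraries labelled sh-PHLPP1, against 0.659, 1.25 and 0.934 CPM in libraries labelled sh-Luc, a log2 fold change of 6.68 ± 0.25 (edgeR adjusted p = 9.34e-09). Serpinb2, an inhibitor of plasminogen activators, had 117, 128 and 162 CPM in libraries labelled sh-PHLPP1, against 2.46, 3.97 and 3.05 CPM in libraries labelled sh-Luc. Saa3, an acute-phase protein, and Ccrl2, a chemokine-binding receptor, had log2 fold changes of 5.99 ± 0.29 and 5.45 ± 0.30. At high levels, Acod1, which makes the antimicrobial itaconate, had 3355, 3522 and 3177 CPM in libraries labelled sh-PHLPP1, against 271, 356 and 306 CPM in libraries labelled sh-Luc, and Tnfrsf1b, a TNF receptor, had 968, 935 and 614 CPM in libraries labelled sh-PHLPP1, against 63.2, 94.9 and 77.9 CPM in libraries labelled sh-Luc. Both genes were separated between the groups, at log2 fold changes of 3.43 ± 0.16 and 3.41 ± 0.22.

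Among the lower genes, Plxna4 (chr6:32144268-32588192), a semaphorin receptor, had 0.473, 0.474 and 0.666 CPM in libraries labelled sh-PHLPP1, against 44.5, 62.5 and 57.4 CPM in libraries labelled sh-Luc (log2 fold change -6.67 ± 0.50, edgeR adjusted p = 1.4e-06). Plau, the urokinase plasminogen activator, had 129.8, 164 and 188 CPM in libraries labelled sh-PHLPP1, against 779, 1012 and 1013 CPM in libraries labelled sh-Luc. Pgd, an NADPH-making enzyme of the pentose phosphate pathway, had 170.2, 197 and 164 CPM in libraries labelled sh-PHLPP1, against 869, 958 and 935 CPM in libraries labelled sh-Luc. Both were lower in each sh-PHLPP1 library than in any sh-Luc library. The inhibitory receptor Lair1 had a log2 fold change of -4.58 ± 0.28, and the tubulins Tuba1b and Tubb5 had -2.49 ± 0.33 and -2.25 ± 0.32, where near-identical tubulin copies may share reads. Pdpn, podoplanin, had 130.4, 146 and 152 CPM in libraries labelled sh-PHLPP1, against 598, 570.2 and 616 CPM in libraries labelled sh-Luc, with a log2 fold change of -2.06 ± 0.26 after OxLDL and -5.75 in untreated cells.

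Part of the difference between the lines was present without OxLDL. Of the 3621 genes higher after OxLDL, 1061 (29.3%) were also higher in untreated cells, 124 were lower there and 2436 were not called, and the shared genes were 54.4% of the 1950 genes higher in untreated cells. Of the 3619 lower genes, 1023 (28.3%) were also lower in untreated cells, 115 were higher there and 2481 were not called, and the shared genes were 64.0% of the 1599 lower in untreated cells. In untreated cells 14.9% of all genes were called higher and 12.2% lower, 27% in either direction. Without both libraries that stand apart, 4354 genes were higher and 4497 lower after OxLDL. Of these, 43.7% and 47.8% were called the same way in untreated cells, beside 24.5% and 22.5% of all genes. Leaving out single untreated libraries moved the shares called the same way in either direction. They were 45.9% and 49.96% without sh-PHLPP1 library 1, and 15.01% and 11.4% without sh-PHLPP1 library 2. They were 15.2% and 11.5% without sh-PHLPP1 library 3, and 19.4% and 16.6% without sh-Luc library 2. In that order, the untreated comparison called 3294 higher and 3078 lower, 869 and 646, 903 and 663, and 1259 and 988 genes. Ctsk and Sqstm1 belonged to the genes called the same way in both. Ptgs2, Csf3 and Msr1 were called in opposite directions, with log2 fold changes of -2.65, -1.81 and -0.89 in untreated cells. Pdk1, called as lower after OxLDL, had 0.00 on that scale in untreated cells, and its line difference changed with OxLDL by -2.76. Without both libraries that stand apart, the untreated log2 fold changes were -1.68 for Ptgs2, -1.37 for Csf3, -0.73 for Msr1, -0.076 for Pdk1, -5.54 for Ctsk and 1.45 for Sqstm1. They were 3.93 for Cd86, -2.88 for Cd36, -5.59 for Fabp4, 0.92 for Cpt1a, 2.04 for Ddit3, -5.20 for Pdpn and 0.15 for Phlpp1.

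**Figure D5:**
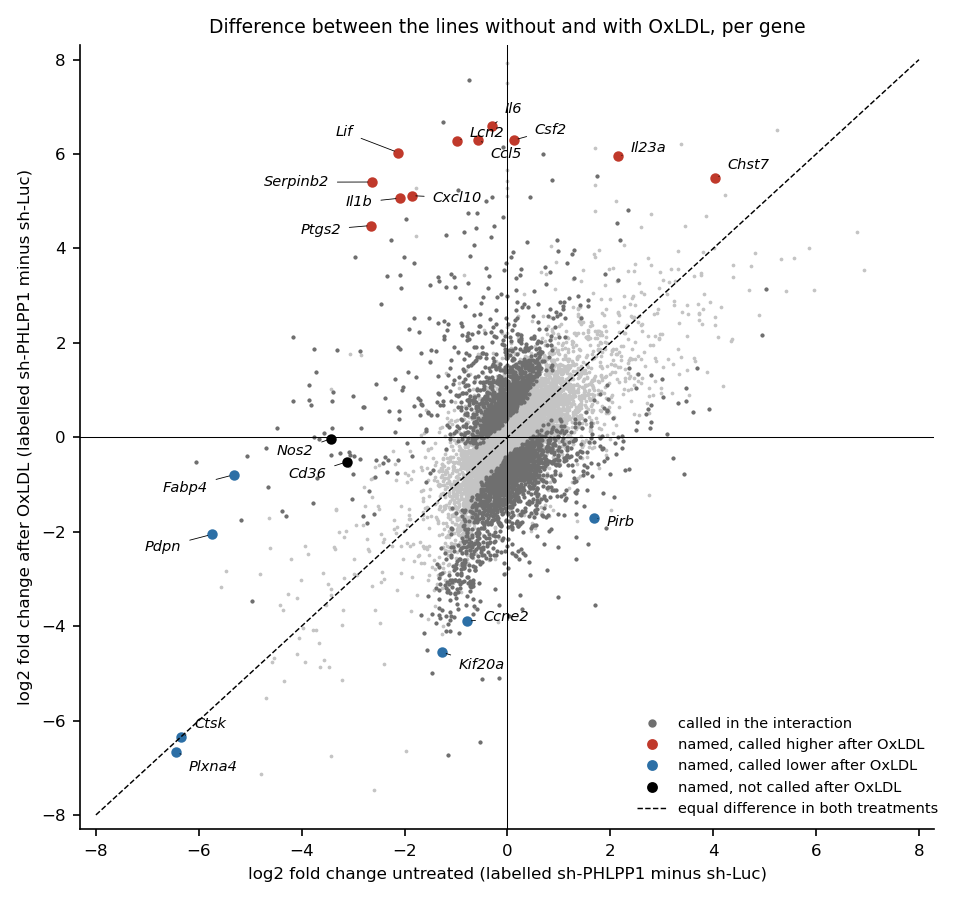
Log2 fold change of each tested gene between the lines (sh-PHLPP1 over sh-Luc) in untreated cells on the x axis and after OxLDL on the y axis. Dark grey dots are genes whose line difference changed with OxLDL in the edgeR interaction test (1451 upward, 1780 downward), light grey dots are the other genes, and larger dots are named genes coloured by their call after OxLDL. Inflammatory genes such as Lif and Ptgs2 stand at the upper left, and Ctsk stands near the diagonal at the lower left.

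The authors' deposited table for the same comparison lists 11998 genes, of which 7857 pass an adjusted p under 0.05, 3977 higher and 3880 lower. Of these, 6907 were also called here with edgeR, which is 87.9% of the genes called in the authors' deposited table and 95.4% of the calls made here. All 6907 had the same sign in both, and 333 genes were called here that the authors' deposited table does not call.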

How the data were processed

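The authors deposited a table of raw read counts per gene (whole numbers, 39179 Ensembl genes by 12 libraries) and, for this comparison, a table with log2 fold changes and an adjusted p-value per gene. Per the submitters' processing notes, the tools were Trimmomatic, FastQC, HTSeq and DESeq2, on build GRCm38. Not given in the sources used here are the aligner, the strand setting, the annotation release and the treatment of multi-mapped reads, so reads of overlapping genes cannot be assigned with certainty. Of the 39179 table entries, 1633 had no symbol.

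From the counts, edgeR 4.0.16 (R 4.3.3, limma 3.58.1) was run on all 12 libraries with a mean for each of 4 groups (8 residual degrees of freedom), filterByExpr, TMM scaling and the quasi-likelihood test. This left 13121 genes, over which p-values were adjusted by Benjamini-Hochberg (threshold 0.05). The spread was shared by the 4 groups. The contrasts were sh-PHLPP1 minus sh-Luc after OxLDL, the same in untreated cells, and their difference, the interaction. Members and gene lists were chosen with earlier results of these data known. DESeq2 1.42.0 served as an alternative, and the authors' log2 values served for a comparison of calls. In a simulation with 12960 genes, 100 genes were changed by 1 and 100 by 2 on the log2 scale, the others not at all. Of these changes, 82% and 97% were recovered, and 12 calls (6.28%) were false, beside the threshold of 0.05. In the real comparison 55.2% of genes were called, so the simulation does not give its error rate.

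Totals ran from 16020186 to 27422114 counts in the 6 OxLDL libraries. A gene at 0 may have had up to 3 counts, that is 0.110 to 0.222 CPM per library; such limits cover counting error only. No pair within a group was a duplicate (chi-square per degree of freedom 4.18 to 118); pairs between groups were not compared this way.

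Named genes were called genes without overlap and averaging 2 or more in log2 CPM, up to 15 per direction by log2 fold change, up to 8 per direction among genes whose higher group reached 500 CPM, and up to 8 per direction in the interaction. Up to 8 more per direction were called in opposite directions in both comparisons, or had an untreated difference under 0.25. From each list came up to 8 called members by p, with members that carry the role of the list, (some named genes are not reported here), and 9 genes of the study's question: Cd36, Fasn, Acaca, Srebf1, Mlxipl, Prkaa1, Prkaa2, Phlpp1 and Phlpp2. Promoters and motifs were taken from RefSeq windows on GRCm38.p6, gene positions from GENCODE on GRCm38. Alternatives were another scaling, no filter, DESeq2, the 6 libraries alone, a replicate block, each library left out, and both untreated libraries that stand apart left out.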

Additional observations from a re-analysis of the deposited data

Results flagged for a closer look

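The difference between the lines after OxLDL differed from that in untreated cells, by the edgeR interaction test, in 3231 genes, in 1451 of them upward and in 1780 downward. Given here are 44 of these genes, 19 upward and 25 downward, named for their interaction, for opposite calls, for a small untreated difference or for the study's question, with standard errors of 0.139 to 0.975 on the log2 scale and adjusted p of 5.05e-09 to 0.0317. A further 19 genes named for their difference after OxLDL were also called in it, 11 upward and 8 downward, and genes named from the lists are not counted here. Groups of 3 libraries are too small to test for a single outlying library.

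Upward changes, on the log2 scale, were found for inflammatory and NF-kB genes. They were 8.15 for Lif, 7.27 for Lcn2, 7.15 for Il1b, 7.13 for Ptgs2, 6.98 for Cxcl10, 6.90 for Il6, 6.88 for Ccl5, 6.17 for Csf2 and 4.56 for Traf1. Other upward changes were 8.04 for Serpinb2, 7.95 for Marcks, 3.73 for Aoah, 3.20 for Rdh12, 3.17 for Isg15, 2.95 for Cxcl16, 2.92 for Slc15a3, 2.69 for Cd274, 2.60 for Cd36 and 2.33 for Zfand5.

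Downward changes were found for cell division genes, -3.53 for Ankle1, -3.29 for Kif20a, -3.19 for Cenpf, -3.11 for Ccne2, -3.07 for Esco2, -3.06 for Fbxo5, -2.99 for Aspm and -1.99 for Tfdp2. Without sh-PHLPP1 OxLDL library 3, Ankle1 (-3.51, adjusted p = 0.0629) and Aspm (-2.97, adjusted p = 0.0572) did not pass the edgeR test. Without both untreated libraries that stand apart, Ankle1 was at -2.07, Kif20a at -1.98, Aspm at -1.83 and Ccne2 at -3.38, each past the test.

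Metabolic and phosphatase genes with downward changes were Pdk1 (-2.76), Angptl4 (-2.20), Cpt1a (-1.90), Fasn (-1.60), Phlpp2 (-0.86) and Phlpp1 (-0.77). The Phlpp2 call was lost without sh-Luc OxLDL library 1 or 2, sh-PHLPP1 untreated library 2, or sh-Luc untreated library 1 or 3. The remaining downward changes were -3.39 for Pirb, whose close relatives may share its reads, -2.97 for Trim65, which overlaps Trim47, -2.61 for Rab7b, -2.55 for Zfp651, -2.45 for Kank2, -2.31 for Arrb1, -2.29 for Zfp36l2, -2.16 for Il6ra, -2.08 for Tlr13, -1.95 for Shtn1 and -1.81 for Tln2.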

How the results depend on the processing

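No gene called after OxLDL both in the main fit and under an alternative had the opposite sign there. The signs of lost calls were not compared over all genes. DESeq2 kept 98.0% of the 7240 calls, the 6 OxLDL libraries alone 97.8%, no filter on low counts 90.7% and library size alone 80.1%. With library size alone, 2180 genes were higher after OxLDL, 996 lower in untreated cells, and the interaction was positive for 569 and negative for 4214. The number of higher members was then 2 in efflux, 1 in lipid droplets, 3 in the respiratory chain, 5 in Toll-like receptors, 4 in lysosome, 4 in autophagy, 6 in p53 targets, 5 in macrophage identity, 4 in tRNA synthetases, 23 in mitochondrial ribosome and 11 in proteasome. The lower members were 13 in fatty acid oxidation and 15 in endoplasmic reticulum. By construction this scaling leaves the abundant genes of sh-PHLPP1 uncorrected.

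With only the 6 untreated libraries, 733 genes were called (425 higher, 308 lower). Without both untreated libraries that stand apart, 6267 were called in untreated cells (3268 higher, 2999 lower) and 5319 in the interaction (2228 positive, 3091 negative), and 8 AP-1 genes were higher, as with the 6 OxLDL libraries alone (8). There, after OxLDL, 2 glycolysis, 4 iron, 4 osteoclast and 3 lipid droplet genes were higher, and 2 lipid droplet, 3 p53 and 11 mitochondrial ribosomal genes lower. Leaving out single libraries gave 6114 to 8235 calls after OxLDL, 1515 to 6372 in untreated cells (869 to 3294 higher, 646 to 3078 lower) and 2114 to 4496 in the interaction (886 to 1899 positive). The untreated count moved most without sh-PHLPP1 untreated library 1 (6372), 2 (1515) or 3 (1566) or sh-Luc untreated library 2 (2247), and the interaction count most without sh-PHLPP1 untreated library 1 (4496) or sh-Luc OxLDL library 3 (2114). It gave 1 to 3 higher members in lipid droplets, 5 to 9 in lysosome and 7 to 11 in p53 targets, and 5 to 11 lower members in endoplasmic reticulum and 4 to 7 in the BCL2 family. The cause was not tested.

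Same-numbered libraries share a passage number, but the deviations of same-numbered OxLDL libraries correlated at only -0.014, 0.157 and 0.0582. With a replicate block, 7051 genes were called after OxLDL and 2965 in the interaction. Of the listed or named genes 13 lost their call, none of them a gene whose value is printed here, and no list count moved by over 1.5 times. The libraries are 3 cultures of 1 line at successive passages, so no value here shows how another line with the same hairpin would stand. At these depths, genes under about 3 counts per library cannot be compared.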

Other observations

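The families in this section were chosen after their values were seen, and their counts are descriptions with no test of the family. Each count after OxLDL is to be read beside the 27.6% of all genes called in each direction. Many motor and tubulin genes were lower in sh-PHLPP1 cells after OxLDL. Of 30 tested kinesins, motors that move along microtubules, 15 were lower and 2 higher (median log2 fold change -0.51), beside 27.6% of all genes in each direction. Kif14 had 1.42, 1.66 and 1.85 CPM in libraries labelled sh-PHLPP1, against 25.8, 23.4 and 27.9 CPM in libraries labelled sh-Luc. The higher Kif3a, a motor of cilia and vesicle transport, had 67.2, 70.8 and 91.6 CPM in libraries labelled sh-PHLPP1, against 31.4, 25.7 and 28.8 CPM in libraries labelled sh-Luc. In untreated cells, with every library kept, 10 kinesins were higher and 1 lower, beside 14.9% and 12.2% of all genes. Their line difference grew more negative with OxLDL in 12 and more positive in 0, beside 13.6% and 11.1% of all genes. Some kinesins, such as Kif20a, also belong to the mitosis list. Of 14 tubulins, 9 were lower after OxLDL and 3 higher (median log2 fold change -1.09). Tubb6 had 160, 174 and 183 CPM in libraries labelled sh-PHLPP1, against 478, 488 and 466 CPM in libraries labelled sh-Luc. Its log2 fold change was of similar size after OxLDL (-1.47 ± 0.13) and in untreated cells (-1.57, or -1.55 without both libraries that stand apart). Near-identical tubulin copies may share reads.

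Nuclear transport factors were lower in 13 of 19 tested members and higher in 1 (median log2 fold change -0.58). The importin Kpnb1 had 267, 270.5 and 283 CPM in libraries labelled sh-PHLPP1, against 572, 592 and 602 CPM in libraries labelled sh-Luc, and the exportin Xpo1 had 121, 110.2 and 106 CPM in libraries labelled sh-PHLPP1, against 223, 188 and 223 CPM in libraries labelled sh-Luc. Both were lower in each sh-PHLPP1 library. Of 37 tested mitochondrial carriers, 13 were lower and 6 higher (median log2 fold change -0.17). Slc25a10, a dicarboxylate carrier, had 10.1, 11.7 and 9.62 CPM in libraries labelled sh-PHLPP1, against 56.9, 58.7 and 57.9 CPM in libraries labelled sh-Luc, and Slc25a37, which brings iron into mitochondria, had 289, 311 and 232 CPM in libraries labelled sh-PHLPP1, against 64.1, 65.6 and 64.5 CPM in libraries labelled sh-Luc, in the opposite direction.

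Feedback genes of cytokine and MAP kinase signalling were more often called higher than lower. Of 19 tested MAP kinase phosphatases of the Dusp family, 8 were higher and 5 lower (median log2 fold change 0.71). The lower ones were at a share near the 27.6% of all genes. Dusp5 was at 1.87 ± 0.27, Dusp2 at 1.596 ± 0.30 and Dusp3 at -0.98 ± 0.11. Of 7 tested Socs and Cish genes, suppressors of cytokine receptors, 4 were higher and 0 lower. Socs3 had 223, 247 and 220.2 CPM in libraries labelled sh-PHLPP1, against 79.0, 104 and 80.2 CPM in libraries labelled sh-Luc, and in untreated cells its log2 fold change was -1.94, or -1.74 without both libraries that stand apart. Of 15 tested TNF receptors, 7 were higher and 4 lower, and the guanylate-binding proteins had 3 of 5 higher and 0 lower.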
